A study of Mus musculus with 22 samples.

Results

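The genes described here encode the enzymes, carriers and binding proteins by which hepatocytes burn fatty acids and make ketone bodies. The set is a fixed list of 31 symbols, chosen with earlier results of these data known. All 31 were found among the 36555 genes of the deposited RNA table. All 31 also passed the filter on low values, which 17978 genes passed in all. RNA was sequenced from mouse hepatoblastoma, a liver tumor of early life, that was driven by YAP1, a transcriptional coactivator held in check by the Hippo pathway. Doxycycline kept YAP1 on, and its withdrawal switched YAP1 off. The YAP1on group held 4 tumors on doxycycline and the day 6 group held 4 tumors taken 6 days after withdrawal, all from B6N.FVB(Cg) mice with Tg(CAG-rtTA3)4288Slowe/J, a transgene for the doxycycline-dependent activator rtTA3 under the broadly active CAG promoter. All tumors of a group bear the code of 1 mouse in the labels, and the difference between the treatments cannot be told apart from that between these 2 mice. The hbHep group, the hepatocyte-like cells of the series' title, held 3 mice at days 121, 114 and 117, each sequenced as 2 technical libraries that were averaged. The FAH liver group held 3 mice kept on NTBC, a drug that blocks tyrosine breakdown upstream of FAH. The hbHep and FAH liver mice both carry FAH Delta Exon 5, a deletion in the last enzyme of that pathway, which the tumor mice are not labeled as carrying.

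Values are given as abundance, the deposited signal per base of transcript after rescaling between samples, so levels of different genes are compared per length. The summed signal of a sample lay between 16 M and 42.1 M (M for the prefix mega), and read counts behind it are not known. Yap1 served as the check of the labels and lay between 5320 and 10870 in YAP1on tumors against 1107 to 1261 in day 6 tumors. The summed abundance of 8 hepatocyte markers, among them Alb, Ttr and Cps1, ranged from 233700 to 408000 over the YAP1on tumors and from 573100 to 717600 over the day 6 tumors. The same sum was 372000 to 604600 in the hbHep mice and 1112000 to 1382000 in the FAH livers. A sum hides differences between the markers. By the test described below, 3 of the 8 were higher in hbHep than in YAP1on tumors, 1 was lower and 4 did not pass (all genes: 28.8% higher and 26.3% lower). None of the 8 was at 0 in any of the 4 groups. Summed markers of bile duct cells (Krt7, Krt19, Epcam, Sox9, Spp1 and Cftr) ran the other way, from 28960 to 38080 in YAP1on tumors down to 655.6 to 733.1 in FAH liver. The 4 Y-linked genes measured (Ddx3y, Uty, Kdm5d and Eif2s3y) summed to 200.3 to 290.8 in the 8 tumors and to 3380 to 6114 in hbHep and FAH liver. Sex, strain and group therefore cannot be told apart where tumors are compared with the other groups. The samples are pieces of tissue, in which fewer cells of a type and less RNA per cell cannot be told apart. The p-values below rest on an estimate of the spread for each gene that all 4 groups share. Comparisons between the tumor groups therefore also carry the spread between hbHep mice and between FAH livers. The tumors themselves add only the spread within 1 mouse of each group.

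Fatty acids enter the hepatocyte through carriers, are bound by a liver fatty acid binding protein and are activated to acyl-CoA. Long chains cross into mitochondria as carnitine esters, where a repeating cycle of dehydrogenation, hydration, a second dehydrogenation and thiolysis releases acetyl-CoA and passes electrons to the respiratory chain. Very long and branched chains are first shortened in peroxisomes, and in liver a large part of the acetyl-CoA becomes ketone bodies for export. Many of these genes are targets of PPARα, a nuclear receptor that binds DNA with RXR at a pair of repeated sites known as DR1, and PGC-1α (Ppargc1a) is a coactivator of the pathway.

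The promoters of Fabp1 and Ehhadh are shown because the results turn on these 2 genes, and that of Hadhb because it is shared with another gene of the set. RefSeq sequences on GRCm38.p6 were matched by symbol for 27 of the 31 genes, and the 250 bases before the annotated start are printed. Capitals mark a DR1 match in Fabp1, a match to CATTCC, the site of the YAP1 partner TEAD, in Ehhadh, and in Hadhb the stretch that also lies in the 300-base window of Hadha, the partner gene on the opposite strand.
Fabp1, chr6:71199629-71199878, plus strand: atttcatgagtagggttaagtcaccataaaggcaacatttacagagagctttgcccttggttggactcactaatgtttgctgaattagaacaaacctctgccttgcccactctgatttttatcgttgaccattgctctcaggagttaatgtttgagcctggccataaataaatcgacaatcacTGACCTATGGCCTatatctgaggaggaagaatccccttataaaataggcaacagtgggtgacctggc
Ehhadh, chr16:21787835-21788084, minus strand: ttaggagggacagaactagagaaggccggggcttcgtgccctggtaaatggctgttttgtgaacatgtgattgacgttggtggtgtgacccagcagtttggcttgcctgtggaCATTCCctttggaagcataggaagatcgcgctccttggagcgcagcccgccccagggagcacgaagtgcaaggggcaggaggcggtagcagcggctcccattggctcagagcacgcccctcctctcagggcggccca
Hadhb, chr5:30155003-30155252, plus strand: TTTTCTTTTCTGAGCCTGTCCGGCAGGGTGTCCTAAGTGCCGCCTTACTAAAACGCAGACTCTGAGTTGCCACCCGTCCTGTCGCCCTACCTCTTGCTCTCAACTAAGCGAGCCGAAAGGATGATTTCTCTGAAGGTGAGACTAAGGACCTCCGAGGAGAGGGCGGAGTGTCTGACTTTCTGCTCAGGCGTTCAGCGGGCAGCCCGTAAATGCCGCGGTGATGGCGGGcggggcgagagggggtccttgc
The starts of Hadha and Hadhb, which encode the 2 subunits of the mitochondrial trifunctional protein, lie head to head 273 bases apart. Their windows share 228 bases.

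Against YAP1on tumors, 15 of the 31 genes passed the test as higher at day 6, 24 in hbHep and 25 in FAH liver, where 12.8%, 28.8% and 33.5% of all genes were higher. At day 6 these included 4 of the 5 genes of uptake and activation and all 4 of the peroxisome, with Fabp1 4.2-fold and Acaa1b 2.7-fold above YAP1on tumors, while 7 of the 9 genes of the mitochondrial cycle did not pass. In hbHep 8 of the 9 were higher. The 4 peroxisomal genes were at a median of 82.5% of the FAH liver level there (53.8 to 150%). That median was 74.0% for the 9 genes of the mitochondrial cycle (52.4 to 157%) and 68.6% for the 3 of the carnitine shuttle. Acat1, which serves both ends of ketone metabolism, had the lowest hbHep level relative to FAH liver, 28.9%, close to Fabp1 at 29.6% and Acsl1 at 32.7%. Together the 31 genes took 0.455 to 0.528% of the signal of the YAP1on tumors and 0.536 to 0.664% of that of the day 6 tumors. Their share was 0.761 to 1.02% among the hbHep mice and 0.874 to 1.05% among the FAH livers. The share was larger in every hbHep mouse than in any day 6 tumor. The summed hepatocyte markers, an abundance and not a share, were higher in day 6 tumors than in 2 of the 3 hbHep mice. These are unlike measures, and the part of hepatocyte content in the results was not tested. A direct test of hbHep against day 6 tumors was not made. FAH liver held the highest group mean for 26 of the 31 genes, and YAP1on tumors held the lowest for 23.

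**Figure D1:**
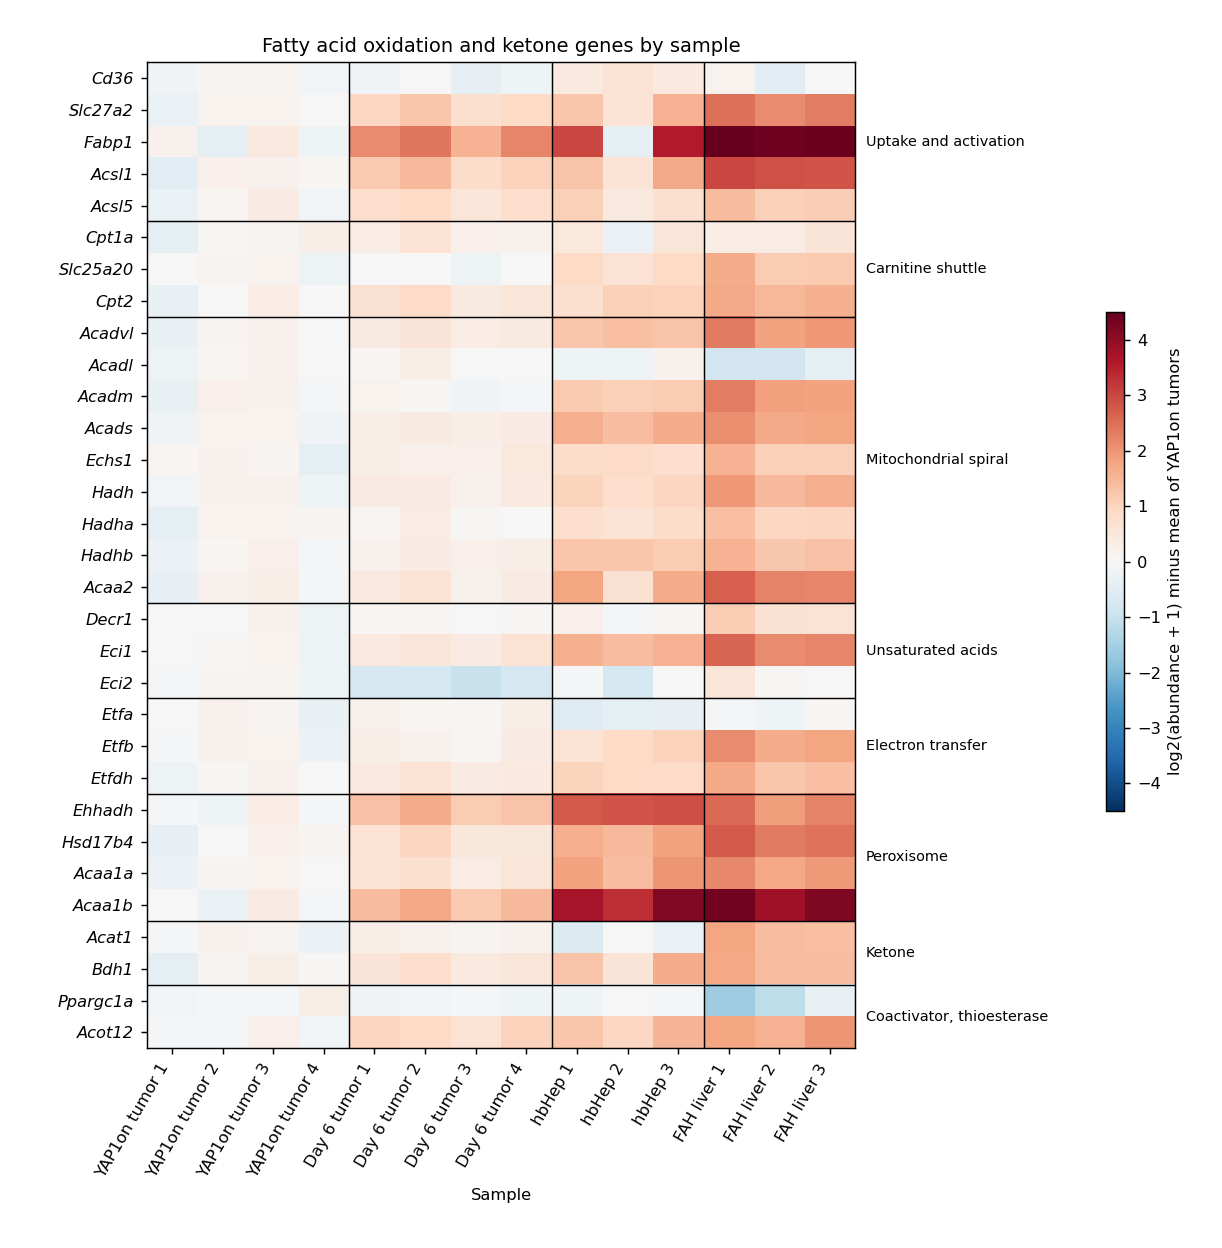
Heat map of the 31 genes (rows, grouped by role) in 14 samples (columns), colored by log2(abundance + 1) minus the mean of the 4 YAP1on tumors. Fabp1 and Acaa1b are the darkest rows in FAH liver, hbHep mouse 2 is pale for Fabp1, and Eci2 is the deepest blue row across the day 6 tumors, where Cd36 and Ppargc1a also lie below the YAP1on mean in all 4.

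Each comparison was tested with limma across all 17978 genes, and p-values were adjusted by the Benjamini-Hochberg method with a threshold of 0.05. Between day 6 and YAP1on tumors, 15 of the 31 genes were higher and 1 was lower, against 12.8% of all genes higher and 10.8% lower. The median log2 fold change was 0.36 over the 31 and 0.02 over all genes. In hbHep against YAP1on tumors, 24 were higher and 1 was lower, against 28.8% and 26.3% of all genes, and the median was 0.96 beside -0.02. In hbHep against FAH liver, 4 were higher and 17 lower, against 19.9% and 17% of all genes, with a median of -0.51 beside -0.01. FAH liver exceeded YAP1on tumors in 25 genes and was below them in 2, against 33.5% and 34.4% of all genes, with a median of 1.61 beside -0.04. The YAP1on tumors serve in 3 of these comparisons, so their values are set side by side and not counted as independent. Fold changes are on the log2(abundance + 1) scale throughout.

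The size of these differences depended on how abundant genes were scaled. The 10% of genes with the highest abundance had a median log2 fold change of 0.28, 0.51, -0.26 and 0.73 in the 4 comparisons in the order above. Quantile normalization, which gives every sample 1 distribution of values, brought those medians to 0.02, 0.01, 0.06 and -0.11. With it the 31 genes split into 11 higher and 3 lower at day 6, 19 and 4 in hbHep against YAP1on tumors, 4 and 10 in hbHep against FAH liver, and 23 and 5 in FAH liver against YAP1on tumors. The medians of the 31 genes were then 0.12, 0.52, -0.18 and 1.01. Of the calls made with the main scaling, 12 of 16, 20 of 25, 14 of 21 and 25 of 27 were kept in their direction, and 5, 14, 13 and 17 fold changes moved by over 1.5 times. With hbHep and FAH liver alone in the model, the calls of Cd36, Fabp1, Slc25a20, Etfa, Etfdh, Ehhadh and Acot12 between them were lost (limma adjusted p = 0.0608 to 0.0855). Among the calls that passed with the main scaling, Cd36 in hbHep against YAP1on tumors was the only 1 whose direction turned.

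**Figure D2:**
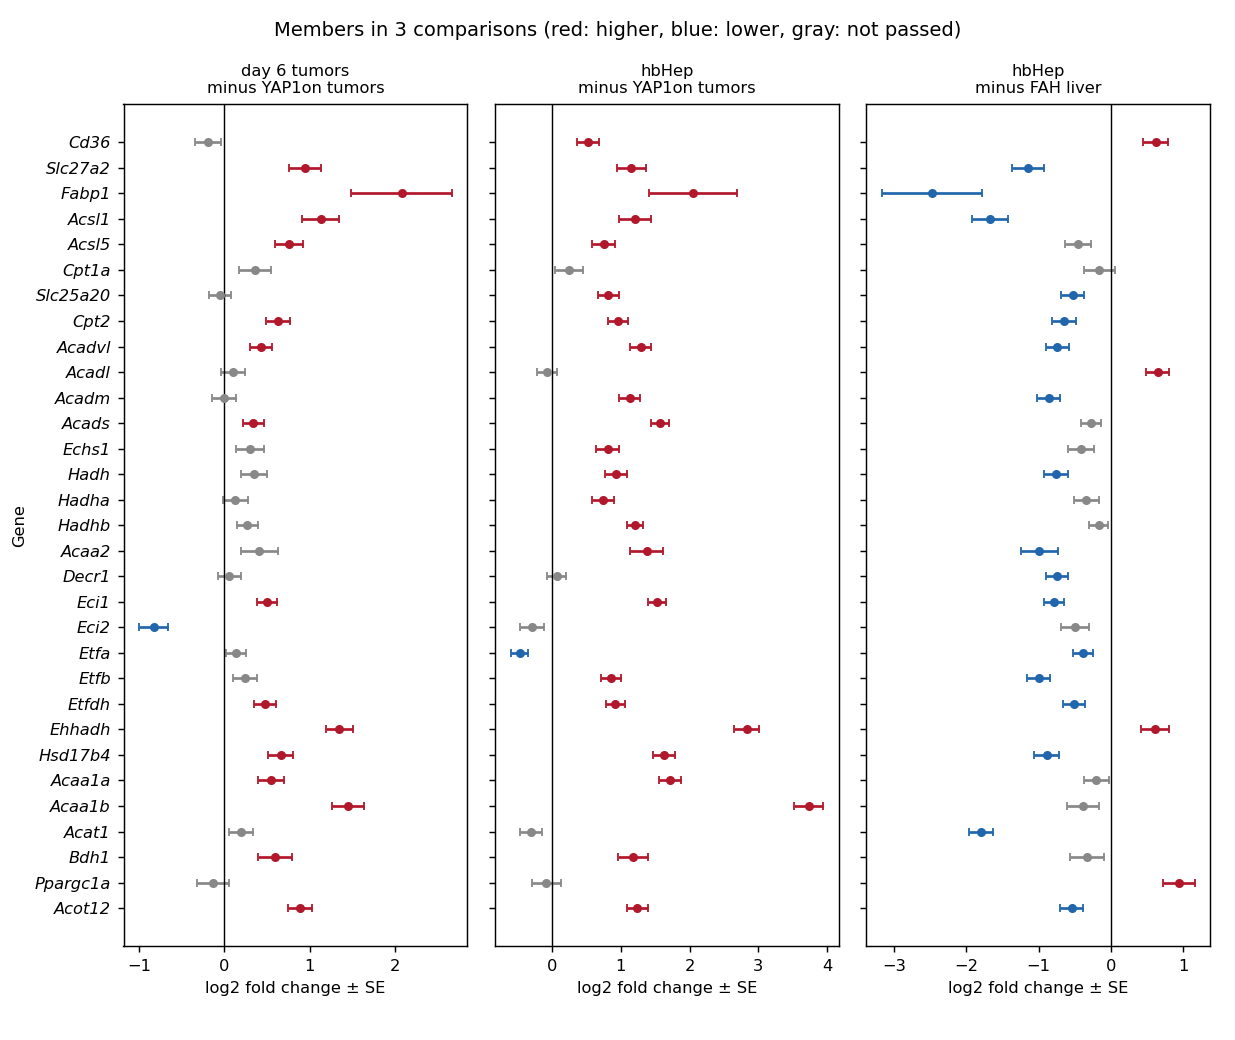
Log2 fold change with its standard error for each gene (vertical axis) in 3 comparisons, colored by whether the limma adjusted p was under 0.05 and the value higher (red), lower (blue) or neither (gray). Acaa1b and Ehhadh reach 3.73 and 2.83 in hbHep against YAP1on tumors, and Fabp1 and Acat1 lie farthest below FAH liver at -2.48 and -1.80; with quantile normalization Cd36 in the middle panel turns to -0.18.

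Of the 5 genes of uptake and activation, 4 rose at day 6 and all 5 rose in hbHep against YAP1on tumors (all genes: 12.8% and 28.8%). Fabp1 encodes the liver fatty acid binding protein, which carries fatty acids through the cytosol (chr6:71199879-71205034). Its abundance was 3853, 2551, 4636 and 2856 in YAP1on tumors, 14830, 18150, 10030 and 15400 in day 6 tumors, 27230, 2491 and 39980 in hbHep, and 93200, 69640 and 72490 in FAH liver. Every day 6 tumor lay above every YAP1on tumor, and every FAH liver above all other samples, but hbHep mouse 2 fell to the level of the YAP1on tumors. The log2 fold change was 2.08 ± 0.59 (SE; limma adjusted p = 0.0186) at day 6 and 2.05 ± 0.64 (limma adjusted p = 0.0138) in hbHep against YAP1on tumors. Against FAH liver, hbHep was lower by -2.48 ± 0.69 (limma adjusted p = 0.0106).

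The Fabp1 calls at day 6 and in hbHep against YAP1on tumors crossed the threshold when single samples were left out. At day 6 the limma adjusted p became 0.0514 without YAP1on tumor 2 and 0.0527 without day 6 tumor 2. The log2 fold change stayed at 1.94 and 1.96, and the shared estimate of the spread includes hbHep mouse 2. With the tumor groups alone in the model the day 6 call was kept. With hbHep and YAP1on tumors alone in it, the call between them was lost (2.05, limma adjusted p = 0.0504). In hbHep against YAP1on tumors the limma adjusted p became 0.0784 without mouse 1 and 0.0987 without mouse 3, where the log2 fold change was 1.29. Without mouse 2 that fold change was 3.29, and the difference from FAH liver was -1.24, which passed (limma adjusted p = 0.00444). Quantile normalization gave 1.52 with a limma adjusted p of 0.0518 against YAP1on tumors and -1.80 with 0.0505 against FAH liver.

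Acsl1, the main acyl-CoA synthetase of liver, was at 1008, 1682, 1637 and 1544 in YAP1on tumors, 3227, 3985, 2568 and 2947 in day 6 tumors, 3529, 2210 and 4749 in hbHep, and 11470, 10380 and 10190 in FAH liver. Its 3 higher groups all lay above the YAP1on tumors without overlap, and hbHep overlapped the day 6 tumors. The day 6 rise was 1.13 ± 0.22 (limma adjusted p = 0.0012) and the hbHep rise 1.21 ± 0.23 (limma adjusted p = 0.000431), while hbHep stayed below FAH liver by -1.68 ± 0.25 (limma adjusted p = 9.34e-05). Slc27a2, a fatty acid carrier and very long chain acyl-CoA synthetase, showed the same order of group means, at 5713 ± 781 (SD, n = 4), 11020 ± 1740 (n = 4), 13030 ± 4140 (n = 3) and 28070 ± 3540 (n = 3). It rose by 0.95 at day 6 and by 1.15 in hbHep, and was -1.15 below FAH liver (limma adjusted p = 0.00209, 0.00028 and 0.000935). Acsl5, another acyl-CoA synthetase, rose by 0.76 at day 6 and 0.75 in hbHep (limma adjusted p = 0.0022 and 0.00166). Its difference from FAH liver, -0.46, had a limma adjusted p of 0.0595, and of 0.0212 at -0.62 without hbHep mouse 1.

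Cd36 did not follow the others. It encodes a scavenger receptor that takes up long-chain fatty acids and is also made by macrophages, endothelial cells and adipocytes. Its abundance was 7833, 9451, 9532 and 7979 in YAP1on tumors, 7706, 8625, 6682 and 7531 in day 6 tumors, 11880, 13620 and 11800 in hbHep, and 9585, 6278 and 8805 in FAH liver. The 3 hbHep mice were the 3 highest samples, and the other 3 groups overlapped. Cd36 was higher in hbHep by 0.52 ± 0.16 against YAP1on tumors (limma adjusted p = 0.012), a direction that turned to -0.18 with quantile normalization, and by 0.62 ± 0.17 against FAH liver (limma adjusted p = 0.0102; 0.0566 without FAH liver mouse 2). Its values of -0.19 at day 6 and -0.10 in FAH liver against YAP1on tumors did not pass (limma adjusted p = 0.41 and 0.597). With quantile normalization both were called lower, at -0.60 and -1.20 (limma adjusted p = 0.00135 and 9.71e-07). Summed macrophage markers (7 genes) were 4177 to 11120 in hbHep, 2675 to 4579 in FAH liver and 7443 to 11070 in YAP1on tumors, and summed adipocyte markers (5 genes) were at most 71.15 in any sample. The part of these cells in the result was not tested.

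**Figure D3:**
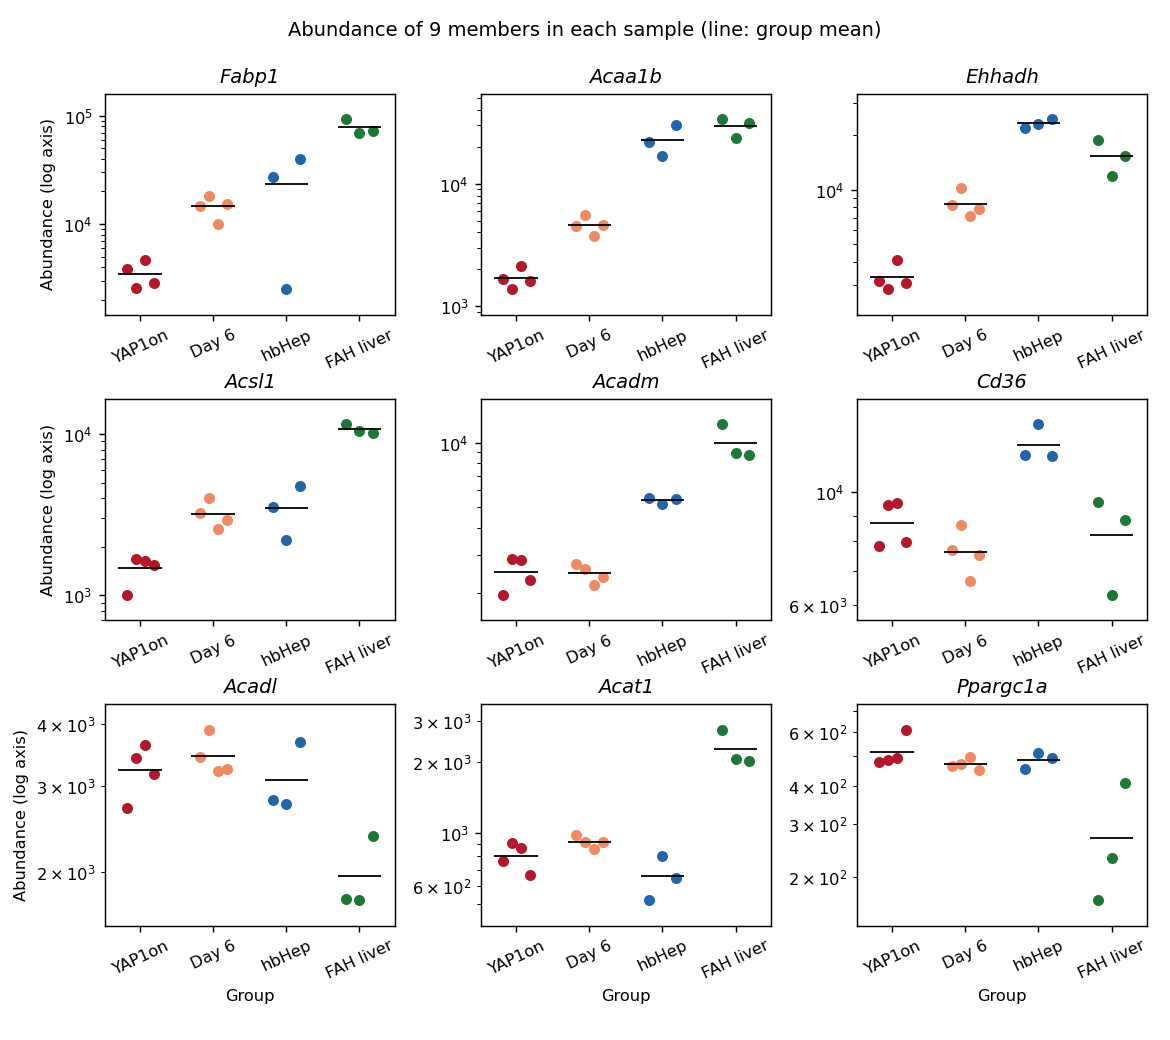
Abundance (log axis) of 9 genes in each sample, with a line at the group mean, for YAP1on tumors, day 6 tumors, hbHep and FAH liver. Fabp1 and Acsl1 climb toward FAH liver with hbHep mouse 2 at 2491 for Fabp1, whereas Ehhadh and Cd36 are highest in hbHep and Acat1 is high in FAH liver alone.

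The carnitine shuttle brings long chains into mitochondria, and Cpt1a is its rate-controlling outer enzyme. Cpt1a passed the test in none of the 4 comparisons: its abundance was 2031, 2876, 3003 and 3269 in YAP1on tumors, 3510, 4288, 3246 and 3163 in day 6 tumors, 3780, 2274 and 4062 in hbHep, and 3499, 3439 and 4085 in FAH liver. The groups overlapped except that all 3 FAH livers lay above all 4 YAP1on tumors. Without hbHep mouse 2, the lowest of its group, Cpt1a was 0.51 higher in hbHep than in YAP1on tumors (limma adjusted p = 0.0268), against 0.25 (limma adjusted p = 0.308) with it. With quantile normalization the value against YAP1on tumors turned to -0.28 in hbHep and -0.36 in FAH liver.

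Both inner shuttle genes rose in hbHep. Cpt2, the inner carnitine palmitoyltransferase, also rose at day 6, from 622.7 ± 117 (SD, n = 4) to 955.5 ± 129 (n = 4), by 0.63 ± 0.14 (limma adjusted p = 0.00417), and stood at 1199 ± 155 (n = 3) in hbHep and 1878 ± 130 (n = 3) in FAH liver. The hbHep value was 0.96 above YAP1on tumors and -0.65 below FAH liver (limma adjusted p = 8.54e-05 and 0.00564). Slc25a20, the carnitine-acylcarnitine translocase, was at 2208, 2422, 2483 and 1888 in YAP1on tumors and at 2234, 2266, 1912 and 2275 in day 6 tumors, which overlapped. In hbHep it was at 4187, 3519 and 4144, above all 8 tumors, a rise of 0.82 ± 0.15 over YAP1on tumors (limma adjusted p = 0.000226; 0.33 with quantile normalization). It was below FAH liver by -0.53 (limma adjusted p = 0.015), a call lost without hbHep mouse 2 (0.0581), without FAH liver mouse 1 (0.0696) and with quantile normalization (0.315).

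Of the 9 genes of the mitochondrial cycle, 2 rose at day 6 and 8 rose in hbHep against YAP1on tumors (all genes: 12.8% and 28.8%). The 2 were Acadvl, the very long chain acyl-CoA dehydrogenase, and Acads, the short chain enzyme. Acadvl was 0.43 ± 0.13 higher (limma adjusted p = 0.0299) and Acads 0.34 ± 0.12 (limma adjusted p = 0.0463). Neither call was stable: the Acadvl p lay between 0.0531 and 0.0925 without YAP1on tumor 1 or 4 or day 6 tumor 1, 2 or 4, and the Acads p between 0.0723 and 0.117 without YAP1on tumor 1 or 4 or any of the 4 day 6 tumors. Both were also lost with quantile normalization (0.0878 and 0.208) and with the replicate number as a block (0.0656 and 0.0913).

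Acadm, the medium chain acyl-CoA dehydrogenase (chr3:153922353-153944643) was called higher in hbHep and not at day 6. Its abundance was 1967, 2868, 2855 and 2299 in YAP1on tumors, 2738, 2577, 2184 and 2376 in day 6 tumors, 5532, 5200 and 5492 in hbHep, and 12130, 8921 and 8743 in FAH liver. The tumors of both groups overlapped, the 3 hbHep mice lay above all of them, and the 3 FAH livers above all hbHep mice. The log2 fold change was 0.00 ± 0.14 at day 6 (limma adjusted p = 0.991), 1.13 ± 0.15 in hbHep against YAP1on tumors (limma adjusted p = 1.9e-05) and -0.86 ± 0.16 against FAH liver (limma adjusted p = 0.000851). Quantile normalization gave 0.64 and -0.41 for the last 2 values, both of which passed.

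Acadvl and Acads also rose in hbHep against YAP1on tumors. Acadvl stood at 3824, 4151 and 3971 in hbHep against 1291, 1782, 1877 and 1621 in YAP1on tumors, and Acads at 4663, 3934 and 4806 against 1353, 1672, 1650 and 1341. Neither gene's hbHep values overlapped those of any tumor, with rises of 1.29 and 1.57 (limma adjusted p = 2.97e-06 and 1.04e-07). Acadvl remained below FAH liver (-0.74, limma adjusted p = 0.00175), whereas the value for Acads, -0.28, did not pass (limma adjusted p = 0.12).

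Acadl, the long chain acyl-CoA dehydrogenase (chr1:66830839-66863309), was the 1 gene of the cycle called lower in FAH liver than in YAP1on tumors. It was at 2707, 3408, 3634 and 3169 in YAP1on tumors, 3425, 3894, 3209 and 3247 in day 6 tumors, 2803, 2753 and 3680 in hbHep, and 1764, 1755 and 2366 in FAH liver. The 3 FAH livers were the 3 lowest samples, and the other groups overlapped. FAH liver was -0.72 ± 0.15 below YAP1on tumors (limma adjusted p = 0.000472), and hbHep was 0.65 ± 0.16 above FAH liver (limma adjusted p = 0.00472). The difference between hbHep and YAP1on tumors was -0.07 (limma adjusted p = 0.693), and -0.61 with quantile normalization (limma adjusted p = 0.000889). The ratio of Acadl to Acadvl was 1.98 ± 0.085 (SD, n = 4) in YAP1on tumors, 1.56 ± 0.0311 (n = 4) at day 6, 0.774 ± 0.137 (n = 3) in hbHep and 0.3 ± 0.0828 (n = 3) in FAH liver. A ratio within a sample shows unequal change of the pair and not which of them changed.

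The genes of hydration and the later steps were called higher in hbHep and not at day 6. Echs1, the short chain enoyl-CoA hydratase, had group means of 9004 ± 1530, 10980 ± 1010, 15650 ± 662 and 21150 ± 4440 (SD, n = 4, 4, 3 and 3, from YAP1on to FAH liver). Hadh, the short chain 3-hydroxyacyl-CoA dehydrogenase, had means of 8519 ± 1270, 10810 ± 781, 16100 ± 1220 and 27500 ± 4830 over the same samples. Both rose in hbHep against YAP1on tumors, by 0.81 and 0.93 (limma adjusted p = 0.000977 and 0.000174), but not past the threshold with quantile normalization (0.16 and 0.24, limma adjusted p = 0.356 and 0.0643). At day 6 their values were 0.30 and 0.35 (limma adjusted p = 0.203 and 0.102), with the sign turned to -0.07 and -0.03 by quantile normalization. With the main scaling all day 6 tumors still lay above all YAP1on tumors for both genes. Echs1 was at 10340 to 12490 against 6769 to 10180, and Hadh at 9693 to 11520 against 7167 to 9621. Echs1 overlaps Paox on the chromosome, so reads of the pair may be shared.

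Hadha and Hadhb, the head-to-head pair, code for the long chain hydratase and dehydrogenase in the first subunit and the long chain thiolase in the other. Hadha was at 1951, 3001, 2946 and 2897 in YAP1on tumors and 4527, 4098 and 4711 in hbHep, and Hadhb at 1306, 1668, 1809 and 1490 against 3725, 3721 and 3403. All hbHep mice lay above all YAP1on tumors for both. Hadhb rose by 1.21 ± 0.12 (limma adjusted p = 1.12e-06; 0.80 with quantile normalization) and Hadha by 0.74 ± 0.16 (limma adjusted p = 0.00106; 0.23 and not passed with quantile normalization). Neither was called different from FAH liver (-0.17 and -0.34, limma adjusted p = 0.355 and 0.135). The ratio of Hadha to Hadhb was 1.71 ± 0.196 (SD, n = 4) in YAP1on tumors and 1.23 ± 0.14 (n = 3) in hbHep.

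Acaa2, the mitochondrial thiolase, closes the cycle. It stood at 3803, 5633, 5900 and 4831 in YAP1on tumors, 6681, 7833, 5692 and 6437 at day 6, 16970, 7971 and 15940 in hbHep, and 31950, 23270 and 22820 in FAH liver. Mouse 2 was again the low hbHep sample, although above all tumors. Acaa2 rose by 1.38 ± 0.24 in hbHep (limma adjusted p = 0.0002; 0.76 with quantile normalization) and stayed -0.99 ± 0.26 below FAH liver (limma adjusted p = 0.00736; -0.64 without mouse 2, and -0.43 and not passed with quantile normalization).

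The accessory enzymes for unsaturated chains went separate ways. Eci1, a mitochondrial enoyl-CoA isomerase, was at 951.8 ± 101 (SD, n = 4) in YAP1on tumors and higher in each other group, at 1346 ± 117 (n = 4) at day 6, 2718 ± 225 (n = 3) in hbHep and 4752 ± 900 (n = 3) in FAH liver. Its log2 fold change was 0.50 at day 6 and 1.52 in hbHep (limma adjusted p = 0.00753 and 2.39e-07), and -0.79 against FAH liver (limma adjusted p = 0.000514). Decr1, the 2,4-dienoyl-CoA reductase, was at 551.7 to 746.8 in YAP1on tumors, 636.8 to 698.8 at day 6 and 616.1 to 770.2 in hbHep, ranges that overlapped, and at 1441, 1033 and 1009 in FAH liver, above all other samples. It was -0.75 ± 0.15 lower in hbHep than in FAH liver (limma adjusted p = 0.00116).

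Eci2 was the only 1 of the 31 genes called lower at day 6. It encodes an isomerase found in mitochondria and peroxisomes (chr13:34977748-35027115). Its abundance was 6043, 6750, 6688 and 5409 in YAP1on tumors, 3673, 3549, 3111 and 3686 in day 6 tumors, 5776, 3597 and 6210 in hbHep, and 9021, 6429 and 6335 in FAH liver. The 4 day 6 tumors lay below all YAP1on tumors, and hbHep mouse 2, at 3597, lay within the day 6 range while the other 2 mice lay within that of YAP1on tumors. The fall at day 6 was -0.83 ± 0.17 (limma adjusted p = 0.00206). In hbHep against FAH liver the value was -0.50 (limma adjusted p = 0.0548), and 0.0487 without hbHep mouse 1 and 0.0259 without mouse 3. With quantile normalization hbHep and FAH liver were both called lower than YAP1on tumors, at -0.94 and -0.85, the last a turn from 0.21. A lncRNA and a pseudogene overlap Eci2.

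Electron transfer flavoprotein takes electrons from the acyl-CoA dehydrogenases and is a dimer of the Etfa and Etfb products. The genes of the dimer moved apart. Etfa was at 2804, 3158, 3031 and 2181 in YAP1on tumors, 3136, 2934, 2844 and 3310 at day 6, 1838, 2043 and 2137 in hbHep, and 2593, 2395 and 2916 in FAH liver. The 3 hbHep mice were the 3 lowest samples of all, with a fall of -0.47 ± 0.13 against YAP1on tumors (limma adjusted p = 0.00747), the only call of a lower value among the 31 genes in that comparison. Etfb was at 1725, 2052, 2029 and 1491 in YAP1on tumors, 2174, 2091, 1945 and 2332 at day 6, 2833, 3354 and 3691 in hbHep, and 7966, 5756 and 6146 in FAH liver. It rose by 0.86 ± 0.15 in hbHep against YAP1on tumors (limma adjusted p = 0.00017; 0.42 with quantile normalization) and lay -1.0 ± 0.16 below FAH liver (limma adjusted p = 0.000162; -0.59 with quantile normalization).

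The ratio of Etfa to Etfb put the samples in order. It was 1.63, 1.54, 1.49 and 1.46 in YAP1on tumors, 1.4 to 1.46 at day 6, 0.579 to 0.649 among the hbHep mice and 0.326 to 0.474 among the FAH livers. The tumor groups met at 1.46, and hbHep and FAH liver each stood apart from both and from each other. Etfa was also called lower in hbHep than in FAH liver (-0.39, limma adjusted p = 0.0406), a call lost without hbHep mouse 1 (0.129) or 2 (0.067), without FAH liver mouse 1 (0.0694) or 3 (0.137), with the replicate number as a block (0.0685) and with quantile normalization (0.37). Etfdh, the dehydrogenase that passes the electrons to ubiquinone, rose by 0.48 at day 6 (limma adjusted p = 0.0125; 0.19 and not passed with quantile normalization) and by 0.92 in hbHep (limma adjusted p = 4.6e-05), and was -0.51 below FAH liver (limma adjusted p = 0.0131; 0.0577 without FAH liver mouse 1 and 0.59 with quantile normalization). Etfb overlaps Cldnd2 and Etfdh overlaps Ppid on the chromosome.

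**Figure D4:**
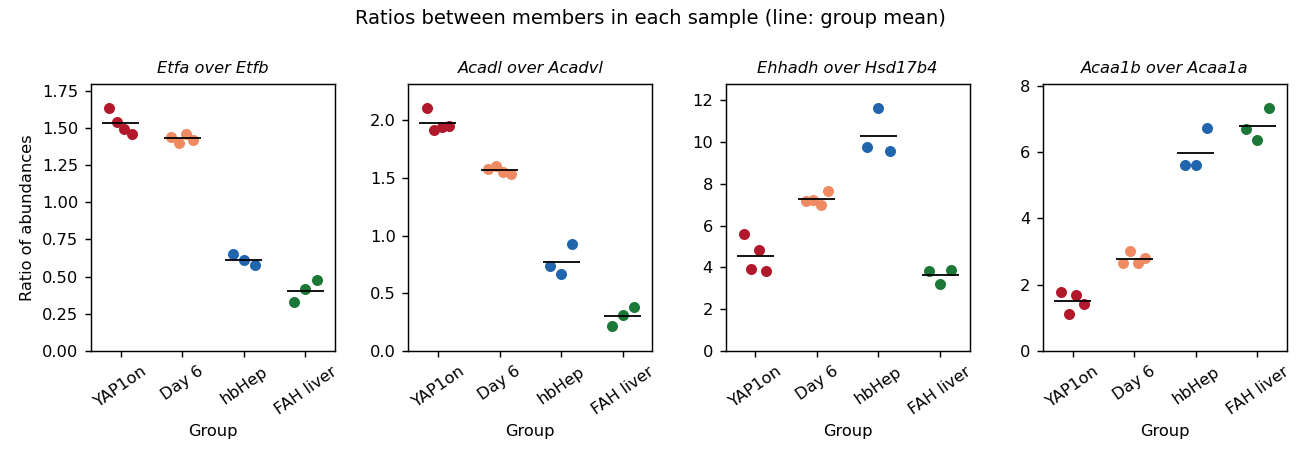
Ratio of the abundances of 4 gene pairs in each sample (points) with the group mean (line), for YAP1on tumors, day 6 tumors, hbHep and FAH liver. Etfa over Etfb falls from a mean of 1.53 in YAP1on tumors to 0.612 in hbHep and 0.405 in FAH liver, while Ehhadh over Hsd17b4 peaks at a mean of 10.3 in hbHep.

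The 4 peroxisomal genes rose in each comparison with YAP1on tumors, where 12.8%, 28.8% and 33.5% of all genes did. Their median log2 fold change was 1.01 at day 6, 2.28 in hbHep and 2.37 in FAH liver. Ehhadh encodes the bifunctional hydratase and dehydrogenase of the PPARα-responsive peroxisomal cycle (chr16:21761285-21787834). Its abundance was 3150, 2823, 4106 and 3043 in YAP1on tumors, 8196, 10230, 7181 and 7831 at day 6, 21840, 23070 and 24420 in hbHep, and 18820, 11920 and 15350 in FAH liver. No 2 groups overlapped, and the hbHep mice were the highest of all 14 samples. The rise was 1.35 ± 0.16 at day 6 (limma adjusted p = 2.19e-05) and 2.83 ± 0.18 in hbHep (limma adjusted p = 8.02e-09). In hbHep it exceeded FAH liver by 0.61 ± 0.19 (limma adjusted p = 0.0198), and by 1.09 with quantile normalization. That last call was lost without hbHep mouse 3 (0.0597), without FAH liver mouse 2 (0.0964) and with these 2 groups alone in the model (0.0851).

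Acaa1b and Acaa1a encode 2 nearly identical peroxisomal thiolases, so the division of reads between them is uncertain, and Acaa1b also overlaps Dlec1 on the chromosome. Acaa1b (chr9:119148043-119157093) was at 1658, 1376, 2142 and 1606 in YAP1on tumors, 4538, 5588, 3765 and 4614 at day 6, 21940, 16680 and 29910 in hbHep, and 33580, 23670 and 31020 in FAH liver. The 4 day 6 tumors lay above all YAP1on tumors, and hbHep overlapped FAH liver only. It had the largest fold change of the 31 genes in hbHep against YAP1on tumors, 3.73 ± 0.21 (limma adjusted p = 2.33e-09), after 1.45 ± 0.19 at day 6 (limma adjusted p = 4.98e-05). Against FAH liver the value was -0.39 (limma adjusted p = 0.186), and -0.61 without hbHep mouse 3 (limma adjusted p = 0.0486). Acaa1a had means of 1136 ± 150, 1664 ± 182, 3783 ± 755 and 4328 ± 650 (SD, n = 4, 4, 3 and 3), with rises of 0.55 at day 6 and 1.72 in hbHep (limma adjusted p = 0.0117 and 3.61e-07). The ratio of Acaa1b to Acaa1a was 1.51 ± 0.292 in YAP1on tumors, 2.77 ± 0.171 at day 6, 5.98 ± 0.635 in hbHep and 6.78 ± 0.487 in FAH liver (SD, same n).

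Hsd17b4, the bifunctional enzyme for very long and branched chains and bile acid precursors, rose as well, with FAH liver as the highest group. Its range was 561.9 to 854.1 over the YAP1on tumors, 1023 to 1419 at day 6, 1988 to 2555 over the hbHep mice and 3712 to 4910 over the FAH livers, without overlap between any 2 groups. It rose by 0.66 at day 6 and 1.63 in hbHep and was -0.89 below FAH liver (limma adjusted p = 0.00462, 8.03e-07 and 0.000953). The 2 bifunctional enzymes therefore differed in hbHep: the ratio of Ehhadh to Hsd17b4 was 4.54 ± 0.843 (SD, n = 4) in YAP1on tumors, 7.26 ± 0.278 (n = 4) at day 6, 10.3 ± 1.13 (n = 3) in hbHep and 3.63 ± 0.367 (n = 3) in FAH liver.

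Of the 2 ketone genes of the set, Acat1 was called lower in hbHep than in FAH liver and Bdh1 was not. Acat1 encodes the mitochondrial acetoacetyl-CoA thiolase, which joins or splits acetyl-CoA units (chr9:53580522-53610350). It was at 766.7, 910.9, 868.7 and 668.4 in YAP1on tumors, 983, 918, 859.3 and 916.7 at day 6, 522, 802.1 and 648.1 in hbHep, and 2743, 2067 and 2017 in FAH liver. FAH liver stood above all other samples, and the hbHep range overlapped that of YAP1on tumors. In hbHep it was -1.80 ± 0.17 below FAH liver (limma adjusted p = 1.16e-06). Against YAP1on tumors the value was -0.30 (limma adjusted p = 0.112), which passed without hbHep mouse 2 (-0.45, limma adjusted p = 0.0259) and with quantile normalization (-0.49, limma adjusted p = 0.0084).

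Bdh1, which turns acetoacetate into 3-hydroxybutyrate, was at 2014, 2980, 3221 and 2780 in YAP1on tumors, 4094, 4673, 3685 and 3957 at day 6, 6512, 4089 and 8714 in hbHep, and 9136, 7055 and 7148 in FAH liver. Each later group lay above the YAP1on tumors without overlap, and hbHep mouse 2 lay within the day 6 range. It rose by 1.18 ± 0.22 in hbHep (limma adjusted p = 0.000307; 0.67 with quantile normalization). The day 6 value of 0.59 had a limma adjusted p of 0.0442, which became 0.0564 to 0.137 without YAP1on tumor 1, 2 or 4 or any of the 4 day 6 tumors, 0.0736 with the replicate number as a block and 0.115 with quantile normalization. Against FAH liver its value of -0.33 did not pass (limma adjusted p = 0.292).

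Ppargc1a, the coactivator, was lower in FAH liver than in YAP1on tumors and hbHep. It was at 476.8, 486, 491.1 and 609.2 in YAP1on tumors, 464, 470.6, 494.8 and 448.8 at day 6, 452.3, 511.5 and 492.2 in hbHep, and 168.5, 231.9 and 409 in FAH liver. The 3 FAH livers were the 3 lowest samples and spread more widely than any other group, and the other 3 groups overlapped. FAH liver was -1.02 ± 0.21 below YAP1on tumors (limma adjusted p = 0.000481), and hbHep was 0.94 ± 0.22 above FAH liver (limma adjusted p = 0.0041). Acot12, a cytosolic thioesterase that releases acetate from acetyl-CoA, had group means of 492.3 ± 58.9, 914.4 ± 97.9, 1176 ± 240 and 1703 ± 250 (SD, n = 4, 4, 3 and 3). It rose by 0.89 at day 6 and by 1.24 in hbHep (limma adjusted p = 0.000233 and 6.45e-06). In hbHep it was -0.54 below FAH liver (limma adjusted p = 0.0161), a call lost without hbHep mouse 2 (0.0802), without FAH liver mouse 3 (0.0712) and with quantile normalization (0.0548).

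Mouse 2 of hbHep stood apart in the set. It was the lowest of the 3 mice in 20 of the 31 genes, and in 14 of the 31 both of its technical libraries lay below all 4 libraries of the other mice. These counts were not made over all genes, so they do not show a trait particular to the set. For Fabp1 its libraries gave 1981 and 3002, and the mouse was 10.9-fold below the lower of the other 2. Next by that measure were Acaa2 (2.0-fold), Cpt1a (1.66-fold) and Eci2 (1.61-fold). Technical libraries of a mouse differed by a median of 1.11-fold over the 31 genes and 3 mice. The largest difference, 1.57-fold, was that of Acadm in mouse 2, at 4053 and 6347. In mouse 2 the first library lay below the second in every gene of the set, so the median understates the offset between its libraries. Its summed hepatocyte markers, 372000, were the lowest of the group as well, and its part in each result is given above where it changed a call. Without it, 25 genes were higher and 2 lower than in YAP1on tumors, and 14 were lower than in FAH liver.

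**Figure D5:**
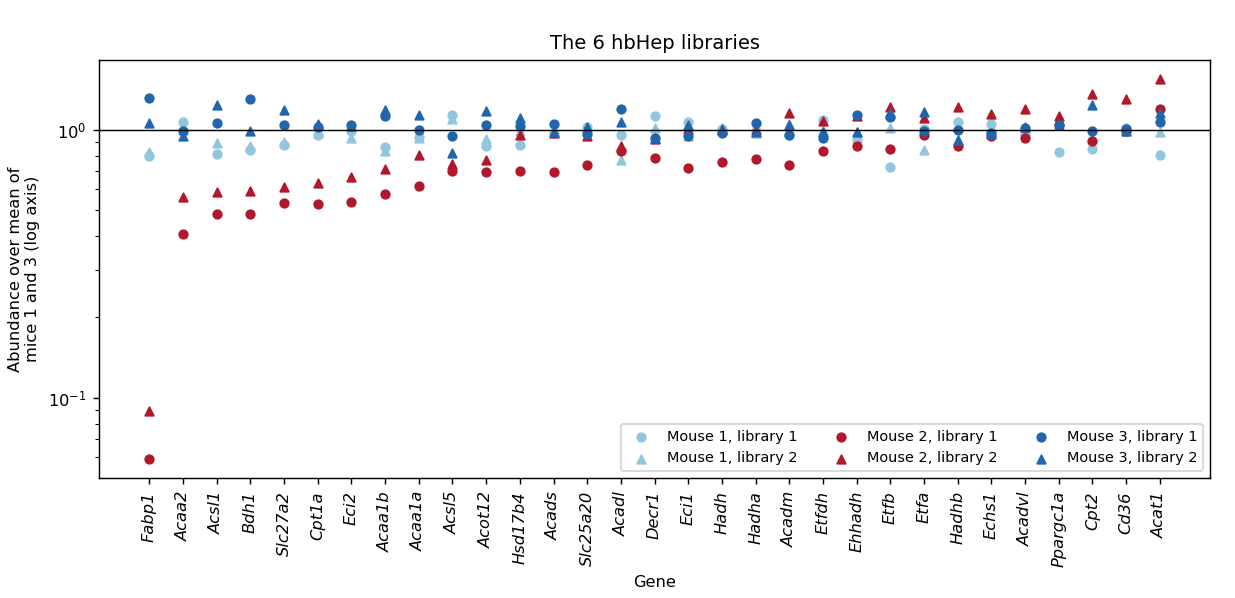
Abundance of each gene in the 6 hbHep libraries divided by the mean of mice 1 and 3 (log axis), with color for the mouse and shape for the technical library, ordered by mouse 2. Both libraries of mouse 2 lie far below the line for Fabp1 and below it for the genes at the left, while the right side shows no such gap.

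In the other groups a single sample also ran through many genes. FAH liver mouse 1 was the highest of its group in 26 of the 31 genes, YAP1on tumor 1 the lowest in 17, and day 6 tumor 3 the lowest in 26. Such counts were not made over all genes, so they cannot be read as particular to the set. FAH liver mouse 1 also had the largest summed signal of all samples, 42.1 M. Day 6 tumor 3 had the highest bile duct marker sum of its group, 7524, and the lowest hepatocyte marker sum, 573100; the part of either in these genes was not tested.

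The other genes of the pathway, 74 in a list drawn up by role, were measured in the same fits, and 73 of them passed the filter (Eci3 did not). At day 6, 26 of the 73 rose and 6 fell (all genes: 12.8% and 10.8%), and 49 were higher and 6 lower in hbHep against YAP1on tumors (28.8% and 26.3% of all genes). In hbHep against FAH liver 17 were higher and 22 lower (19.9% and 17% of all genes), and in FAH liver against YAP1on tumors 47 were higher and 18 lower (33.5% and 34.4% of all genes). Their median log2 fold changes were 0.31, 0.63, -0.24 and 1.12 in that order, beside 0.36, 0.96, -0.51 and 1.61 for the 31 genes.

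Of the 16 peroxisomal genes of this list that were tested, 8 rose and 8 did not pass at day 6, where 12.8% of all genes rose. In hbHep against YAP1on tumors 15 rose, where 28.8% of all genes did, and none of the 16 was called lower in either comparison. Phyh, which starts the removal of phytanic acid, had the largest rise of these peroxisomal genes in hbHep, 2.88 ± 0.19 (limma adjusted p = 1.08e-08). Pecr and Hacl1, which act on enoyl-CoA and on 2-hydroxy acids, rose at day 6 by 1.57 and 1.45 (limma adjusted p = 2.44e-06 and 2.81e-06) but in hbHep were -1.74 and -1.34 below FAH liver (limma adjusted p = 2.62e-06 and 1.58e-05).

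Of the 7 other ketone genes, 2 were higher and 3 lower in hbHep than in FAH liver, where 19.9% and 17% of all genes were. Bdh2, a cytosolic hydroxybutyrate dehydrogenase, was at 54.92, 44.48 and 97.26 in hbHep against 1104, 785.3 and 849.3 in FAH liver and 169.7 to 239.9 in YAP1on tumors. The hbHep mice lay below both, by -3.84 ± 0.27 and -1.63 ± 0.25 (limma adjusted p = 7.47e-08 and 6.76e-05). Oxct1, which lets tissues use ketone bodies and is low in hepatocytes, was at 198.3, 89.2 and 140 in hbHep and 69.15, 51.38 and 35.17 in FAH liver, a difference of 1.42 ± 0.28 (limma adjusted p = 0.00108). Slc16a6, a monocarboxylate carrier, was the other higher gene (1.01 ± 0.35, limma adjusted p = 0.0342), with overlapping groups.

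Of the 15 other mitochondrial genes of the list, 6 rose and 1 fell at day 6 (12.8% and 10.8% of all genes). In hbHep against YAP1on tumors 11 rose and 0 fell (28.8% and 26.3% of all genes). In hbHep against FAH liver 3 were higher and 6 lower (19.9% and 17% of all genes). Acad10 and Acad11 rose by 2.52 and 1.79 in hbHep against YAP1on tumors (limma adjusted p = 3.97e-09 and 6.58e-07). Acacb and Acot2 had the largest called changes at day 6 and in hbHep against FAH liver. Acacb, which makes the malonyl-CoA that inhibits CPT1, ranged over 625.5 to 851.4 in YAP1on tumors, 3755 to 5679 at day 6, 5955 to 8065 among the hbHep mice and 1922 to 3581 among the FAH livers, without overlap between any 2 groups. It rose by 2.49 ± 0.19 at day 6 and exceeded FAH liver by 1.39 ± 0.21 in hbHep (limma adjusted p = 2.41e-07 and 0.000139). Acot2, a mitochondrial thioesterase, fell by -1.32 ± 0.22 at day 6 (limma adjusted p = 0.000366) and was at 1053, 1319 and 1509 in hbHep against 232.6, 126.6 and 289.3 in FAH liver, a difference of 2.64 ± 0.25 (limma adjusted p = 1.58e-06).

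In the entry list, the bile acid and fatty acid CoA ligase Slc27a5 rose by 2.56 ± 0.19 at day 6 and 2.98 ± 0.20 in hbHep (limma adjusted p = 2.08e-07 and 1.71e-08). Acsl4, the synthetase that prefers arachidonic acid, was at 15310, 11980 and 12190 in hbHep, above all other samples, against 4543 to 5045 in FAH liver (1.43 ± 0.15, limma adjusted p = 3.46e-06). Lipc, hepatic lipase, rose by 2.35 ± 0.30 at day 6 (limma adjusted p = 3.7e-05) and was at 3771, 1114 and 3662 in hbHep, with mouse 2 lowest as for Fabp1.

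Ppara itself was at 1091, 1344, 1312 and 1381 in YAP1on tumors, 1993, 2354, 1538 and 1813 at day 6, 2390, 1278 and 3048 in hbHep, and 3011, 3354 and 3269 in FAH liver. The day 6 tumors and FAH livers lay above all YAP1on tumors, and hbHep mouse 2 lay within the YAP1on range. Ppara was higher in hbHep than in YAP1on tumors (0.72 ± 0.22, limma adjusted p = 0.0128), while the day 6 value of 0.57 and the value of -0.61 against FAH liver did not pass (limma adjusted p = 0.0569 and 0.0577). Of the 9 other PPAR targets of the list, 2 rose and 3 fell at day 6 (all genes: 12.8% and 10.8%), and 3 rose and 1 fell in hbHep against YAP1on tumors (28.8% and 26.3% of all genes). In hbHep against FAH liver 4 were higher and 1 lower (19.9% and 17% of all genes), and in FAH liver against YAP1on tumors 2 were higher and 6 lower (33.5% and 34.4% of all genes). Cyp4a10, a fatty acid omega-hydroxylase, rose by 2.39 ± 0.36 at day 6 and 3.68 ± 0.39 in hbHep (limma adjusted p = 0.000169 and 1.61e-06). Angptl4, a secreted inhibitor of lipoprotein lipase, fell by -1.07 ± 0.11 and -1.17 ± 0.12 in the same comparisons (limma adjusted p = 6.57e-06 and 1.54e-06). Pdk4, the kinase that shuts pyruvate dehydrogenase, was at 135.5, 390.5 and 104.1 in hbHep against 12.35, 9.811 and 21.69 in FAH liver (3.58 ± 0.37, limma adjusted p = 3.11e-06). The FAH liver values lay near the filter value of 10, and the YAP1on tumors were at 254.2 to 290.2.

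Open chromatin was mapped by a transposase assay (ATAC-seq) in 1 library each of a YAP1on sample, of days 14, 33 and 64 with YAP1 off, and of liver labeled WT, so these are descriptions without a test. A promoter was counted as open where the deposited intervals covered at least 150 of the 300 bases from 250 before to 50 after a start. At day 14, 25 of the 27 genes with a promoter sequence were open (92.6%, against 40.2% of all 27025 genes), at day 33 24 (88.9% against 40.3%), at day 64 23 (85.2% against 39.6%) and in WT liver 22 (81.5% against 35.3%). All genes of the set passed the filter on RNA, which 17978 genes passed in all, so the 27025 include genes that did not. The share among genes that passed it was not counted. In the YAP1on library only the promoter of Bdh1 was open (3.7% against 2.32% of all genes), but its intervals were narrow, with a median width of 21 bases against 61 to 71 in the other 4 lists. The lists therefore cannot be compared for openness: by the rule of at least 1 covered base, 23 of 27 promoters were touched in the YAP1on library (85.2%, against 47.8% of all genes). The window of Ppargc1a was covered by 0, 0, 0, 0 and 16 bases in the 5 libraries, the least of the set.

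Across the promoters printed above, the Fabp1 window was covered by 11, 220, 242, 229 and 243 bases (YAP1on, days 14, 33 and 64, and WT liver) and the Ehhadh window by 101, 253, 300, 256 and 273. The Hadhb window had 30, 164, 129, 169 and 145 covered bases, and the Hadha window 86, 163, 118, 169 and 142. DR1 was searched on both strands as AGGNCA, any base, and AGGNCA again. It was found in 1 of the 27 promoters, at position -67 of Fabp1 as TGACCTATGGCCT, and in 0.451% of all promoters. Those 13 bases were covered by 0, 0, 13, 9 and 0 bases in the 5 libraries. CATTCC was found on either strand in 5 of 27 (18.5%, against 16.6% of all promoters), those of Etfb, Acsl1, Slc25a20, Ehhadh and Cpt1a, and the 6 bases in Ehhadh, at position -137, were covered in all 5 libraries. The motifs do not overlap each other, and a match is a stretch of letters and not a bound site.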

How the data were processed

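RNA of 17 libraries (14 samples) was analysed as signal per gene, which the authors deposited; the submitters' processing notes name GRCm38.p6, sleuth, kallisto 0.45.0 and bcl2fastq. The unit is read here as scaled reads per base, so levels are per length and no read counts, counting intervals or count models apply. Reads that fit several transcripts are divided among them by kallisto's estimate. ATAC intervals on mm10, the same assembly as GRCm38, were deposited by the authors per library. For these the submitters' processing notes name Picard, SAMtools, BWA, cutadapt and bcl2fastq, and the program that called the intervals is not given in the sources used here.

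Technical libraries of a mouse were averaged. Signal was rescaled by median-of-ratios factors (0.9528 to 1.089), genes with at least 10 in at least 3 samples were kept, and log2(abundance + 1) was fitted with limma 3.58.1 (lmFit, eBayes with a trend, R 4.3.3) in 1 model of 4 groups, with Benjamini-Hochberg adjustment over all genes and a threshold of 0.05. The script was tested on simulated data. Of the 36555 gene identifiers, 35912 matched a symbol.

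All 31 genes are named. Of the other lists, those past the threshold with the largest changes (at most 3 a list and comparison) could be named, plus Ppara; the results of some genes under this rule are not reported here. The 31 genes and all lists were chosen with earlier results of these data known. Alternatives were other scalings, pseudocounts and filters, no trend, only the groups compared, either technical library alone (the second added after seeing the data), the replicate number as a block, and each sample left out. Replicate numbers did not pair the samples.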

Additional observations from a re-analysis of the deposited data

Results flagged for a closer look

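Each gene's abundance was checked for a sample far from the rest in the tumor groups of 4, 62 groups in all, of which chance flags about 1 in 20, and 4 stood out. Slc25a20 was at 1912 in day 6 tumor 3 against 2234 to 2275 in the other 3. Echs1 was at 12490 in day 6 tumor 4 against 10340 to 10670. Hadha was at 1951 in YAP1on tumor 1 against 2897 to 3001, and Ppargc1a at 609.2 in YAP1on tumor 4 against 476.8 to 491.1. None of these 4 genes was called between the tumor groups with the main scaling, with or without the sample.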

How the results depend on the processing

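Values of single genes kept their direction and side of the threshold in 574 of 620 settings at day 6, 570 of 589 in hbHep against YAP1on tumors, 510 of 558 in hbHep against FAH liver and 580 of 589 in FAH liver against YAP1on tumors. With quantile normalization the genes lower numbered 3, 4, 10 and 5 in the order day 6, hbHep against YAP1on tumors, hbHep against FAH liver and FAH liver against YAP1on tumors. The sign turned with it at day 6 for Acadl (-0.19), Echs1 (-0.07), Hadh (-0.03), Hadha (-0.12) and Etfa (-0.13), in hbHep against YAP1on tumors for Cd36 (-0.18), Cpt1a (-0.28) and Decr1 (-0.11), and in FAH liver against YAP1on tumors for Cpt1a (-0.36) and Eci2 (-0.85). In hbHep against FAH liver it turned for Cpt1a (0.09), Acads (0.07), Echs1 (0.11), Hadha (0.03), Hadhb (0.11), Acaa1a (0.09), Acaa1b (0.12) and Bdh1 (0.09). Without rescaling, Acadl in hbHep against YAP1on tumors (0.01) and Etfa in FAH liver against them (0.02) turned. Leaving out a sample turned Hadha (-0.02 without YAP1on tumor 1, range -0.02 to 0.19), Decr1 (-0.02 without YAP1on tumor 4, range -0.02 to 0.13) and Slc25a20 (0.01 without day 6 tumor 3) at day 6. It turned Decr1 in hbHep against YAP1on tumors (-0.01 and -0.02 without YAP1on tumor 4 or hbHep mouse 1, range -0.02 to 0.15), Cpt1a in hbHep against FAH liver (0.1 without mouse 2, range -0.32 to 0.1) and Cd36 in FAH liver against YAP1on tumors (0.09 without FAH liver mouse 2, range -0.21 to 0.09). Of these, only Cd36 in hbHep had passed the test with the main scaling. Acads and Bdh1 at day 6 also missed the threshold without rescaling, without the filter, without the trend and with the first technical library alone (limma adjusted p from 0.0645 to 0.0878).

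With each sample left out in turn, the genes higher ranged from 11 to 15 at day 6 and from 23 to 25 in hbHep against YAP1on tumors, where those lower ranged from 1 to 2. In hbHep against FAH liver those higher ranged from 2 to 4 and those lower from 14 to 19. All genes higher at day 6 ranged from 1728 to 2099, and all genes lower in hbHep against FAH liver from 2227 to 3048. With only the groups compared in the model, 2 of the 31 genes were higher in hbHep than in FAH liver, and 1894 of all genes were lower. A filter of 100 left 3980 of all genes lower in FAH liver than in YAP1on tumors, among fewer genes tested, and the first technical library alone left 2 of the 31 lower in hbHep than in YAP1on tumors. Same-numbered samples correlated at -0.228 to -0.03 between tumor groups and 0.02 to 0.186 between hbHep and FAH liver, so numbers do not pair them. A replicate block left 12 genes higher and 1 lower at day 6, 24 and 1 in hbHep against YAP1on tumors, 4 and 16 in hbHep against FAH liver, and 25 and 2 in FAH liver against YAP1on tumors. Where no construction such as fewer genes or samples shows it, the cause was not tested. In the order YAP1on, days 14, 33 and 64 and WT liver, open promoters numbered 0, 23, 18, 20 and 13 of 27 within 1000 bases each side (0, 25.7, 22.6, 20.7 and 12% of all genes). By 1 covered base they numbered 23, 26, 26, 26 and 27 (47.8, 52.2, 50.5, 50.6 and 49.5%), and with intervals of at least 200 bases 0, 0, 2, 1 and 0 (0, 2.31, 2.7, 2.59 and 2.08%).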
